A study of Mus musculus with 8 samples.

Results

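Brain-derived neurotrophic factor (Bdnf) and neurotrophin-3 (Ntf3), the tyrosine kinase receptors TrkB (Ntrk2) and TrkC (Ntrk3), the low-affinity neurotrophin receptor p75 (Ngfr), and 2 receptors of the GDNF family, Ret and Gfra2, were followed by gene symbol through nuclei of the mouse hippocampus and caudate putamen. They are 7 of the 32285 genes counted, and all 7 were found. Single-nucleus RNA-seq libraries had been made from C57BL/6JN mice of 3 or 21 months, with no other genotype or treatment in the labels. Punches of the left anterior hippocampus or the left caudate putamen gave 4 groups, and each group held 2 libraries. Each library mixed equal numbers of sorted nuclei from 1 male and 1 female of the same age, so the sexes are not told apart here. Nothing in the labels ties a hippocampal library to a caudate putamen library of the same animals, and the p-values measure the spread between libraries only.

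Neurotrophins are secreted growth factors made as precursors, and in the adult brain they act mainly on synapses and on the survival of neurons. BDNF binds TrkB, neurotrophin-3 binds TrkC, and p75 binds all mature neurotrophins and, with sortilin-family receptors, their precursors. Bdnf is also a gene that neurons induce with activity, from several alternative promoters. Ret is the signalling kinase for the GDNF family ligands, and Gfra2 is the anchored co-receptor that presents neurturin to it, so these belong to a neighbouring growth factor family rather than to the neurotrophin receptors. Many medium spiny neurons of the caudate putamen carry TrkB and are known to receive BDNF from cortical axons.

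The 8 libraries held between 67205436 and 234811422 UMIs (molecules counted once each) and between 6387 and 17012 nuclei after filtering, 97740 nuclei in all. Nuclei were clustered within each region, without using the 7 genes or the gene lists below, and clusters were named from marker genes. A class name such as dentate granule stands for dentate granule-like nuclei throughout. Of the nuclei, 6246 (6.39%) stayed unnamed, 4666 of them in the hippocampus. Levels could be given for 15 hippocampal and 12 caudate putamen classes, and the UMIs of a class in a library were summed before any comparison. A level is given as CPM, the counts of a gene scaled to the UMI total of its class, as the mean ± SD over the 4 libraries of the region. Counts from transcript ends are not corrected for length, so values of different genes are not set against each other. The median nucleus held from 2016 UMIs (caudate putamen microglia) to 26214 (CA3 pyramidal nuclei) in the classes given a level, and any 2 libraries shared at most 0.774% of the smaller one's barcodes.

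In the GRCm38 build the genes differ widely in span. Bdnf (ENSMUSG00000048482) covers chr2:109674700-109727007 on the plus strand and Ntf3 (ENSMUSG00000049107) chr6:126101412-126166910 on the minus strand. The receptor genes Ntrk2 (ENSMUSG00000055254, chr13:58806569-59133970, plus strand, 327 kb) and Ntrk3 (ENSMUSG00000059146, chr7:78175959-78738012, minus strand, 562 kb) are the longest. Ngfr (ENSMUSG00000000120) lies at chr11:95568818-95587735, minus strand, Ret (ENSMUSG00000030110) at chr6:118151745-118197718, minus strand, and Gfra2 (ENSMUSG00000022103) at chr14:70890120-70979838, plus strand. Counted antisense genes lie inside Bdnf (Gm45346), Ntrk2 (Gm47423 and 4930415C11Rik) and Ntrk3 (4921513I08Rik and Gm9885). Another counted gene, Gm39038, overlaps Ntrk3 on the same strand. How strand was used in counting is not given in the sources used here, so it is not known whether reads of the antisense pairs were told apart.

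Because Bdnf is read here beside a list of activity-induced genes, the promoter windows of RefSeq (GRCm38.p6) were searched for the core of the cAMP response element, the letters CGTCA or TGACG on either strand, in the 250 bases before each transcript start. Windows were on hand for 4 of the 7 genes, 7 of them for Bdnf. One of the 7, at chr2:109692186-109692435 on the plus strand, held the motif 35 bases before its start, and it is shown because counts at the transcript end add up transcripts from all starts. Of all 32851 windows in the table, 5836 (17.8%) hold the motif. The capitals mark it:
Bdnf window: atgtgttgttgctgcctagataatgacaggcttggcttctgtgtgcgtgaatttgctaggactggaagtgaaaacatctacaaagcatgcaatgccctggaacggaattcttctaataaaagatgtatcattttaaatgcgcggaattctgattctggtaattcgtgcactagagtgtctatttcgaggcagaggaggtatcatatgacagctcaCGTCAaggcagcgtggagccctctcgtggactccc
A match to these letters is a description only, and nothing in these counts tells which start a Bdnf transcript used.

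The ligands were measured mostly in hippocampal excitatory neurons. Bdnf was at 73.2 ± 6.98 CPM in dentate granule nuclei, the principal cells of the dentate gyrus, with 66.4 and 68.3 CPM in the libraries of 3 months and 77.7 and 80.6 CPM in those of 21 months. CA3 pyramidal nuclei (39.2 ± 5.00 CPM) and CA1 pyramidal nuclei (37.7 ± 3.99 CPM) came next, with ranges that overlap each other and stay below the dentate granule libraries. Among neurons, subicular or deep cortical excitatory nuclei followed at 19.8 ± 2.17 CPM. Hippocampal microglia (22.0 ± 8.60 CPM) and endothelial nuclei (19.6 ± 13.7 CPM) had means near theirs with wide spreads, and the neuronal transcripts found in those glia are given below. Of the inhibitory classes, Lhx6 interneurons were at 5.86 ± 4.46 CPM and Adarb2 interneurons at 2.55 ± 3.28 CPM, and Adarb2 nuclei had no count in either library of 21 months. The lowest Bdnf level in a library of the granule, pyramidal and subicular classes was 16.8 CPM, and the highest in a library of the inhibitory ones was 12.5 CPM. Cajal-Retzius nuclei, which are also glutamatergic, did not follow that split, with 17 counts in all, 38.1 CPM in 1 library of 3 months and none in 2 of the other libraries.

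In the caudate putamen Bdnf was low in the neuronal classes given a level. D1 and D2 medium spiny nuclei, the 2 kinds of striatal projection neuron, had 68 counts in 17615 nuclei and 43 counts in 13819 nuclei, or 0.293 ± 0.139 and 0.234 ± 0.130 CPM. Cholinergic interneurons had no count, where 3 counts would have given 0.853 CPM. The astrocytes had the highest mean there, 3.94 ± 1.80 CPM, but the lowest of their libraries lay below the highest microglia library (2.19 CPM). Their pooled level was 4.19 CPM (79 counts, exact Poisson 95% interval 3.32 to 5.22), while the other 8 classes with a count reached at most 0.638 CPM pooled. Pericytes had no count on so few UMIs that 3 counts would have given 3.41 CPM. The interval covers counting error only. By library, Bdnf in the astrocytes was at 3.92 and 1.41 CPM at 3 months and 5.24 and 5.20 CPM at 21 months. Slc17a7, a marker of excitatory neurons, was at 0.159 to 1.36 CPM in the same astrocytes. The 2 genes are not set against each other, and the part of neuronal RNA in the Bdnf counts was not tested.

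Ntf3 was more narrowly placed than Bdnf. Dentate granule nuclei held it at 66.5 ± 2.22 CPM, with 69.6, 65.9, 66.2 and 64.3 CPM in the 4 libraries. The next class by mean, hippocampal pericytes, was at 8.99 ± 6.55 CPM on 7 counts, and Lhx6 interneurons were at 7.19 ± 5.44 CPM on 88. CA1 pyramidal nuclei, which hold Bdnf, had 1.85 ± 0.444 CPM. CA3 nuclei varied from 0.434 CPM to 16.8 CPM between libraries, the highest being 1 library of 3 months, so that their mean of 6.48 CPM rests on that library. D1 and D2 medium spiny nuclei had 15 and 11 counts. The 4 dentate granule libraries, from 64.3 CPM up, did not overlap any library of another class, the highest of which was 16.8 CPM.

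The receptors Ntrk2 and Ntrk3 were broad. Ntrk2 was highest in Cajal-Retzius nuclei (1343 ± 261 CPM), the reelin-making cells at the surface of the hippocampus, then in eccentric medium spiny nuclei (1150.1 ± 125), hippocampal astrocytes (1081 ± 22.8), Lhx6 interneurons (1028 ± 84.3) and caudate putamen astrocytes (961 ± 54.7). Each of these overlapped the next in its library range. D2 and D1 medium spiny nuclei (742 ± 76.6 and 729 ± 72.5 CPM) and CA1 pyramidal nuclei (720.1 ± 53.1) could not be ordered against each other, because each range contains the other means. Among neurons Ntrk2 was lowest in dentate granule nuclei, at 280.2 ± 21.1 CPM, with cholinergic interneurons at 314 ± 27.4, a pair whose ranges also overlap. The class with the most Bdnf thus had the lowest neuronal mean of Ntrk2, not told apart from cholinergic interneurons. The lowest mean was in hippocampal oligodendrocytes, whose libraries lay between 32.7 and 58.1 CPM and overlapped hippocampal microglia and border macrophages. Oligodendrocyte precursors were at 532 ± 35.3 CPM in the hippocampus and 555 ± 54.6 CPM in the caudate putamen. Counts summed per gene do not tell the kinase-bearing form of TrkB from the truncated form for which astrocytes are known.

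Ntrk3 had another order. Dentate granule nuclei led at 1187 ± 64.0 CPM, followed by hippocampal fibroblasts (1148 ± 148), eccentric (1146 ± 59.2), D1 (1109 ± 59.7) and D2 (1079 ± 67.6) medium spiny nuclei and CA1 pyramidal nuclei (1041 ± 53.6). Neighbours in that list overlap in their ranges, and without the first library of 3 months, or with the mean of single nuclei in place of summed counts, fibroblasts came first. Interneurons were lower, from 648 ± 106 CPM in Lhx6 nuclei to 345 ± 14.4 in Pvalb Pthlh and 334 ± 44.1 in cholinergic nuclei. Oligodendrocyte precursors had 807 ± 48.5 CPM in the hippocampus and 803 ± 51.1 in the caudate putamen, while astrocytes, which are rich in Ntrk2, had only 60.0 ± 26.8 and 93.9 ± 15.6 CPM of Ntrk3. Cajal-Retzius nuclei, first for Ntrk2, were at 197 ± 140.0 CPM.

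By mean level, the highest classes of Ngfr, Ret and Gfra2 were not neurons, and those levels rest on few counts. Ngfr was highest in hippocampal fibroblasts, 16.2 ± 5.33 CPM on 29 counts, with 21.4 and 19.3 CPM at 3 months and 14.6 and 9.42 CPM at 21 months. Oligodendrocytes came next, at 2.80 ± 1.74 CPM in the caudate putamen and 2.55 ± 0.593 CPM in the hippocampus. Ngfr had no count in 14 of 27 classes, cholinergic interneurons among them, in which 3 counts would have given from 0.0643 to 9.14 CPM. Ret was found in endothelial nuclei of both regions, at 16.8 ± 8.43 CPM in the hippocampus (57 counts) and 12.6 ± 5.73 CPM in the caudate putamen (15 counts). In each region the second library of 21 months held only 1 count (5.75 and 5.95 CPM). Adarb2 interneurons, subicular nuclei and cholinergic interneurons held 2.68, 2.34 and 2.34 CPM of Ret on 10, 50 and 8 counts, and 9 classes had none.

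Gfra2 was spread over unrelated classes. Pericytes, the mural cells of capillaries, had 65.2 ± 25.6 CPM in the caudate putamen and 56.8 ± 38.6 CPM in the hippocampus, on 54 and 40 counts, with none in the second hippocampal library of 21 months. Dentate granule nuclei had 39.4 ± 13.9 CPM, and their libraries (27.3 to 53.6 CPM) overlapped the pericyte ranges of both regions. Oligodendrocyte precursors had 29.3 ± 4.90 CPM in the caudate putamen and 21.9 ± 2.44 CPM in the hippocampus, and CA1 pyramidal nuclei had 19.4 ± 2.66 CPM. D1 and D2 medium spiny nuclei were near 0, at 1.07 ± 0.640 and 0.395 ± 0.213 CPM, and cholinergic interneurons had no count. Ret, the partner kinase, had 0 counts in the pericytes of both regions. There 3 counts would have given 5.00 CPM in the hippocampus and 3.41 CPM in the caudate putamen, so low levels would be missed. Dentate granule nuclei had 23 counts of Ret in 19138 nuclei, 0.0964 ± 0.0237 CPM.

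**Figure D1:**
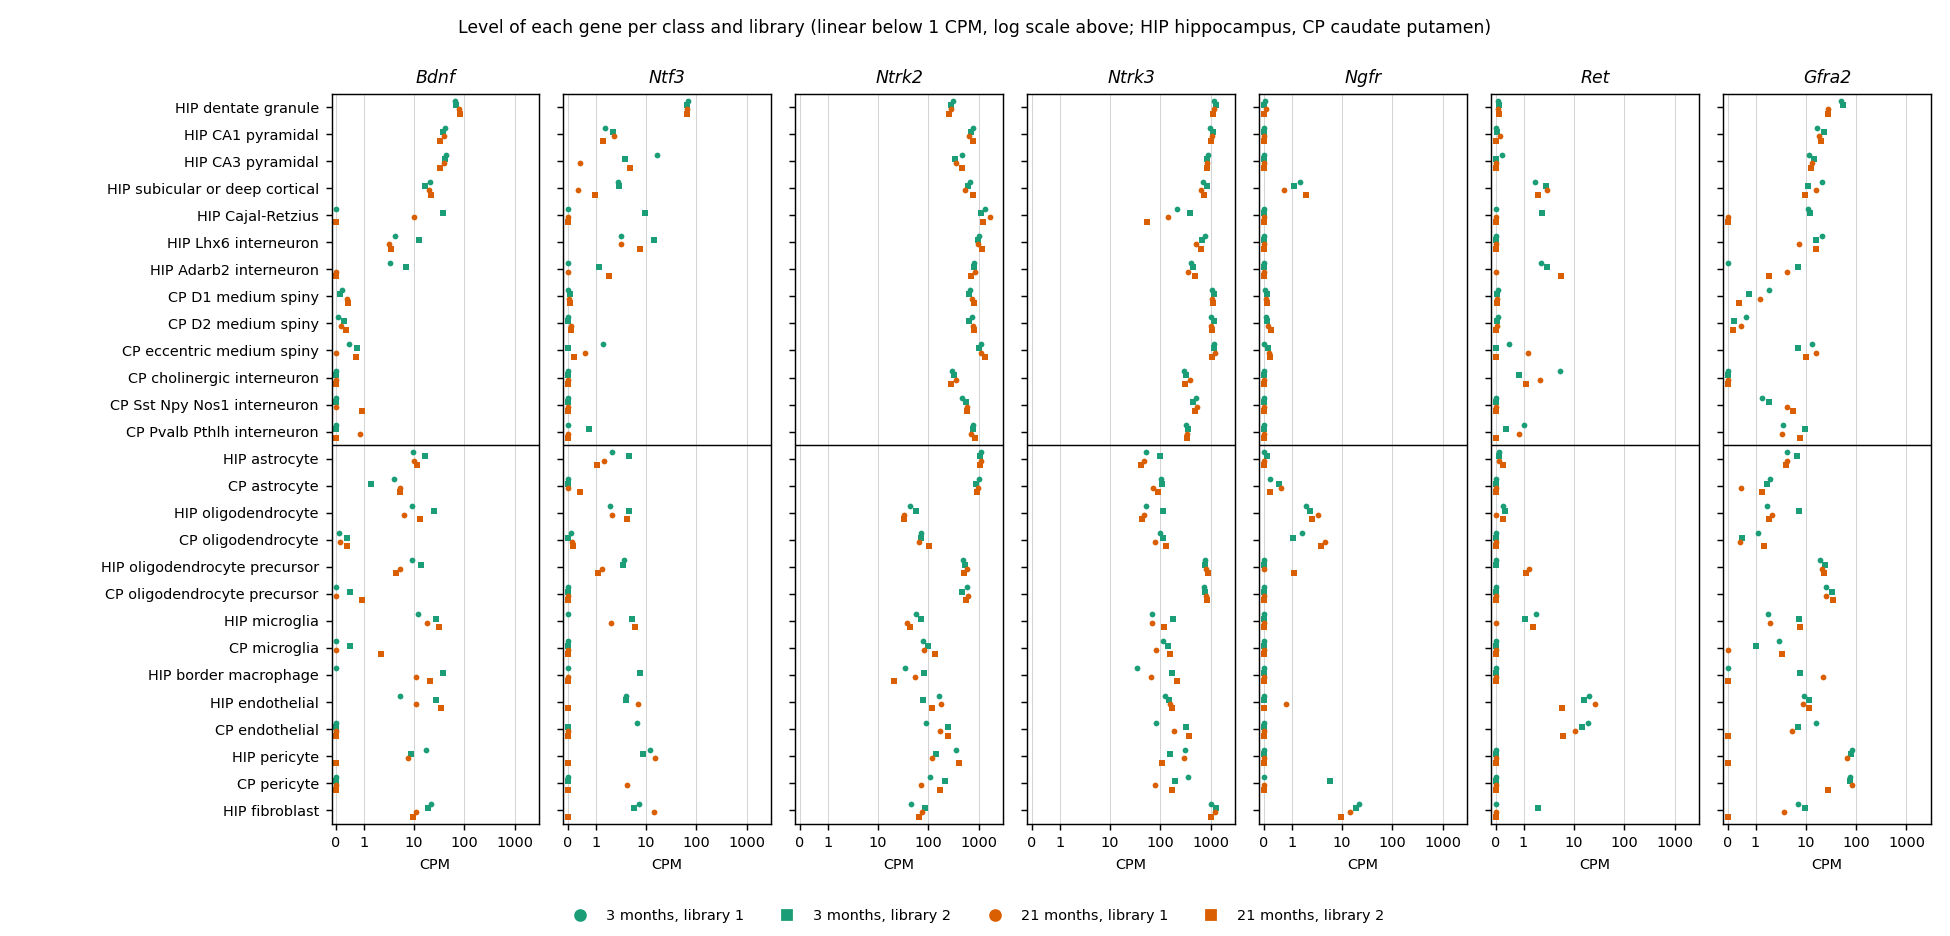
Level of each of the 7 genes (panels; CPM, linear below 1 and log above) in 27 classes (rows; neurons above the line) with 1 point per library, coloured by age. Dentate granule libraries reach 64.3 to 69.6 CPM for Ntf3 and 66.4 to 80.6 CPM for Bdnf, while Ntrk2 and Ntrk3 are high in most neurons and differ in astrocytes.

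Shares of nuclei with at least 1 UMI were given at matched depth as well. Bdnf was seen in 44.9% of dentate granule nuclei (SD 3.98), whose median depth was 9995 to 11498 UMIs, and in 13.1% of those that could be thinned to 2000 UMIs (57 of 19138 were shallower and left out). Microglia of the hippocampus, with a median depth of 2417 to 2796 UMIs, gave 5.31% and, after thinning without 217 shallower nuclei of 917, 3.93%. For Ntf3 the thinned share was 11.6% in dentate granule nuclei and 0.466% in hippocampal microglia. Both dentate shares were thus above the level seen in a class of another lineage.

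Over the 27 class means, the genes most like Bdnf among 15200 expressed genes were Neurod2 (Pearson r 0.97), Slc17a7 (0.97), Slc30a3 (0.95), Nrn1 (0.95) and Prdm8 (0.93), mostly genes of excitatory neurons. For Ntf3 they included Gm34567 (0.91), Onecut1 (0.91), Dsp (0.88) and Lct (0.87). Ntrk2 ran closest to Gm47423 (0.97), its own antisense gene, then Astn1 (0.93), Nol4 (0.92), Gm37679 (0.91) and Ppp2r2b (0.91). Those for Ntrk3 were Cyfip2 (0.88), Fndc9 (0.88), Rnf165 (0.87), Brinp1 (0.86) and Stxbp5l (0.85). For Ngfr they were Errfi1 (0.83), Lpar1 (0.82), Gm536 (0.81), Musk (0.80) and Ptgdr (0.80). Ret was nearest to Cfap52 (0.90), Ly75 (0.90), Usp43 (0.88), Myct1 (0.88) and Tmem252 (0.88), and Gfra2 to Pcdh19 (0.77), Prkg1 (0.77), Sema5a (0.77), Tbc1d1 (0.76) and Ackr3 (0.74). Classes of a region share libraries, so these values are descriptions without a test.

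Dentate granule nuclei were not uniform for these genes. They fell into 5 clusters, numbered 0, 1, 3, 5 and 14, of 6519, 5144, 4158, 2602 and 715 nuclei. Bdnf was at 97.8 ± 8.99, 35.6 ± 4.96, 52.1 ± 6.74, 77.5 ± 26.0 and 232 ± 21.5 CPM in that order, and Gfra2 at 11.5 ± 3.79, 81.1 ± 8.80, 40.3 ± 2.53, 28.2 ± 5.53 and 11.7 ± 8.03 CPM. The cluster lowest in Bdnf was the highest in Gfra2, and the pair highest in Bdnf, clusters 14 and 0, was the lowest in Gfra2. No library of cluster 14 fell below 204 CPM of Bdnf and none of cluster 1 rose above 40.1. Ntf3 hardly varied, between 54.1 ± 9.39 and 68.5 ± 2.48 CPM.

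Cluster 14 also had the most Ntrk2 of the dentate clusters, 705 ± 149.9 CPM against 218 ± 13.9 to 338 ± 15.1 in the others, so the cluster with the most Bdnf also had the most of its receptor. Its leading genes included Trpc6, Glis3, Lhfpl3 and Sorcs3, a sortilin-family receptor, whose level there was 1596 ± 288 CPM and at most 153 ± 40.2 CPM in the other 4. Ntrk3 was high in clusters 1 and 14 (1625 ± 135 and 1580.3 ± 108 CPM) and between 921 ± 55.7 and 1126 ± 64.5 CPM in the rest. Cluster 5 is shallow, with a median of 6506 UMIs against 10441 to 13200 in the others, and 26.0% of the dentate nuclei of 1 library of 3 months lay in it. The clusters were made from the same nuclei, so differences between them carry no test.

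**Figure D2:**
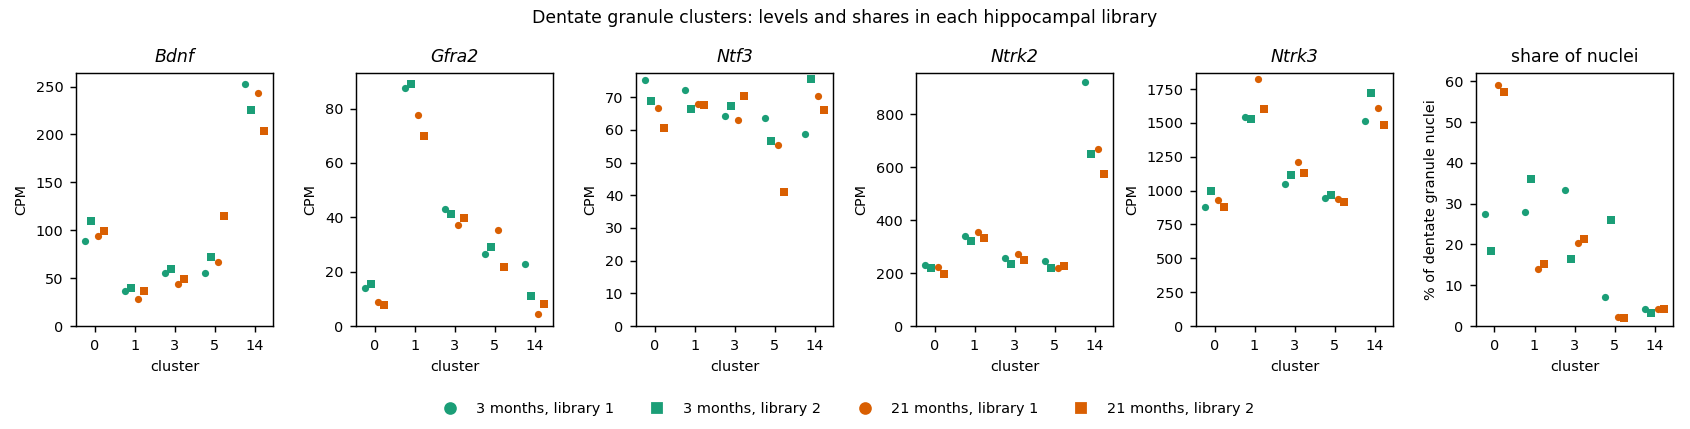
Levels of 5 genes (CPM) in the 5 dentate granule clusters, and the percent of dentate granule nuclei in each cluster, with 1 point per hippocampal library. Bdnf runs opposite to Gfra2 between clusters 0 and 1, and cluster 0 holds 59.2% and 57.3% of the nuclei at 21 months against 27.4% and 18.3% at 3 months.

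Medium spiny nuclei varied mainly in Ntrk2. Among D1 clusters it was 868 ± 157 (cluster 2), 486 ± 74.5 (cluster 3), 1027 ± 124 (cluster 4) and 492 ± 88.7 CPM (cluster 8), while Ntrk3 stayed between 921 ± 76.1 and 1275 ± 64.3 CPM. Among D2 clusters it was 652 ± 76.6 (cluster 0), 1093 ± 136 (cluster 6) and 457 ± 128 CPM (cluster 11). The D1 and the D2 cluster with the most Ntrk2 both had Sema5b among their leading genes. Clusters 8 and 11 came mostly from the first library of each age, with 28.0% and 24.1% of D1 nuclei in those libraries and 2.11% and 0.803% in the others. The nuclei named eccentric split by Gfra2. Their main cluster of 1102 nuclei had 3.14 ± 0.875 CPM and a smaller one of 328 had 54.0 ± 27.5 CPM. Another of 134 nuclei held 34.6 ± 12.4 CPM of Gfra2 and 4.03 ± 3.16 CPM of Bdnf. Both of these smaller clusters came from a second clustering of inhibitory clusters chosen as low in Ppp1r1b, apart from the main medium spiny clusters. In the 134 nuclei Ntrk3 was at 220.4 to 338 CPM, against 1178 to 1289 CPM in the main cluster. Whether the smaller clusters are medium spiny nuclei was not tested. Pvalb Pthlh nuclei split by Ntrk3, at 194 ± 17.4 CPM in 417 nuclei and 637 ± 43.5 CPM in another 100, and the same 100 held 21.1 ± 3.11 CPM of Gfra2 against 0.348 ± 0.410 CPM. One subicular cluster of 305 nuclei nearly lacked Ntrk3 (28.4 ± 16.3 CPM against 934 ± 57.0 and 906 ± 179 CPM in the other two) and had 6.93 ± 2.26 CPM of Ret.

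Age was compared within each class by edgeR's quasi-likelihood test, with p-values adjusted over all genes of the class by the Benjamini-Hochberg method and a call at an adjusted p under 0.05. In the hippocampus, 44 of the 70 gene and class pairs passed the filter on low counts and 2 were called, both in dentate granule nuclei, with 1 gene higher and 1 lower at 21 months. Over all genes and classes of the hippocampus 1.01% of tests were called, and 4.13% in dentate granule nuclei, where 742 of 17946 genes were called. By class the share was 0.752% in CA1, 0.158% in CA3, 0.0810% in subicular, 0% in Lhx6 and 0.232% in Adarb2 nuclei, and 0.754% in astrocytes, 1.05% in oligodendrocytes, 1.14% in their precursors and 0.0387% in microglia. With 5 of the 7 genes tested there, the 2 calls are not read against that background. The genes were chosen with earlier results of these data known.

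Gfra2 fell with age in dentate granule nuclei. It was at 49.2 and 53.6 CPM at 3 months and at 27.7 and 27.3 CPM at 21 months, so the ages do not overlap. Its log2 fold change was -0.85 (SE 0.07, edgeR adjusted p = 5.43e-05), a level 1.81-fold lower at 21 months. Bdnf rose in the same nuclei, from 66.4 and 68.3 CPM to 77.7 and 80.6 CPM. Its log2 fold change was 0.28 (SE 0.06, edgeR adjusted p = 0.0255), 1.21-fold. The call for Bdnf was lost without the second library of 3 months (0.28, adjusted p = 0.0653) and without either library of 21 months (0.31 with adjusted p = 0.124, and 0.25 with adjusted p = 0.174). Ntf3, Ntrk2 and Ntrk3 were not called there, with log2 fold changes of -0.01, -0.09 and -0.05.

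The makeup of the dentate nuclei also differed between the ages. Cluster 0, high in Bdnf and low in Gfra2, held 27.4% and 18.3% of dentate granule nuclei at 3 months and 59.2% and 57.3% at 21 months. Cluster 1, low in Bdnf and high in Gfra2, went the other way, from 27.9% and 36.1% to 14.1% and 15.1%. Fitted within single clusters, an alternative added after the data were seen, the Bdnf log2 fold change was -0.02, -0.20, -0.26, 0.41 and -0.06 in clusters 0, 1, 3, 5 and 14, with no call. Held at fixed cluster shares, mean Bdnf was 77.9 CPM at 3 months and 74.5 CPM at 21 months, and the rise was not seen. Gfra2 fell within cluster 0, from 14.1 and 15.3 CPM to 8.90 and 7.58 CPM (log2 fold change -0.79, SE 0.14, edgeR adjusted p = 0.00140; 3.45% of all genes were called in that cluster), and was not called in the other 4 (-0.19, -0.09, 0.13 and -1.37 in clusters 1, 3, 5 and 14). At fixed shares it was 39.4 CPM at 3 months and 32.3 CPM at 21 months. Whether the clusters are kinds of granule cell or states that shift with age was not tested.

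Another 6 hippocampal pairs had an unadjusted p under 0.05 without a call. Over all genes, 537 of 10446 in Lhx6 nuclei and 3251 of 17946 in dentate granule nuclei had such a p, the lowest and highest shares by class. Ntf3 in subicular nuclei had 47 counts at 3 months and 3 counts at 21 months, at unequal depth, or 2.76 and 2.85 CPM and then 0.370 and 0.980 CPM (adjusted p = 0.441). In oligodendrocytes Ntrk2 was at 43.1 and 58.1 CPM and then 32.8 and 32.7 CPM (log2 fold change -0.59, SE 0.21, adjusted p = 0.201), and Ntrk3 at 53.2 and 113 CPM and then 47.7 and 43.1 CPM (-0.84, SE 0.33, adjusted p = 0.241). Without the second library of 3 months Ntrk3 was at -0.23 (adjusted p = 0.872). The remaining ones were Ntf3 in astrocytes (-1.28, adjusted p = 0.342), Ntrk3 in oligodendrocyte precursors (0.20, adjusted p = 0.439) and Ntrk2 in microglia (-0.66, adjusted p = 0.579). The other 36 pairs lay between -1.51 (Ntf3 in CA3 nuclei) and 0.53 (Ngfr in oligodendrocytes), with 18 on each side of 0.

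In the caudate putamen, 33 of 63 pairs were tested and 1 was called, against 1.18% of all tests in that region and 1.37% in its oligodendrocytes. The share was 1.27% in D1 and 4.61% in D2 medium spiny nuclei, 0% in eccentric, Pvalb Pthlh and Sst Npy Nos1 nuclei, 0.628% in astrocytes, 0.345% in oligodendrocyte precursors and 0.465% in microglia. Ngfr rose in oligodendrocytes, from 1.64 and 1.05 CPM (13 and 10 counts) to 4.71 and 3.79 CPM (55 and 39 counts), with no overlap between ages. Its log2 fold change was 1.73 (SE 0.34, edgeR adjusted p = 0.0378), 3.31-fold. The call did not hold without any 1 of the 4 caudate putamen libraries, where the change was 1.43 to 2.05 and the adjusted p 0.0698 to 0.421, nor on the region's 4 libraries alone (1.71, adjusted p = 0.0635), nor in the main oligodendrocyte cluster alone (1.41, adjusted p = 0.106). DESeq2 gave no adjusted p for it. In hippocampal oligodendrocytes Ngfr was at 1.96 and 2.29 CPM and then 3.35 and 2.60 CPM (log2 fold change 0.53, not called), and the difference of the 2 age effects was 1.20 (SE 0.55, edgeR adjusted p = 0.735).

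Bdnf in D1 medium spiny nuclei moved from 12 and 12 counts to 20 and 24 counts (0.208 and 0.144 CPM, then 0.389 and 0.433 CPM), a log2 fold change of 1.22 (SE 0.37, edgeR adjusted p = 0.147). Ntrk2 in the same nuclei was at 685 and 658 CPM and then 754 and 819 CPM (0.20, SE 0.08, adjusted p = 0.253). Neither passed the test. Of the other 30 pairs, 3 had at most 3 counts in an age group, and the remaining 27 lay between -1.08 (Gfra2 in astrocytes) and 0.91 (Bdnf in astrocytes). Fitted within single clusters, Ntrk2 gave 0.40 (adjusted p = 0.0571), 0.15, 0.22 and -0.14 in D1 clusters 2, 3, 4 and 8, with no call.

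**Figure D3:**
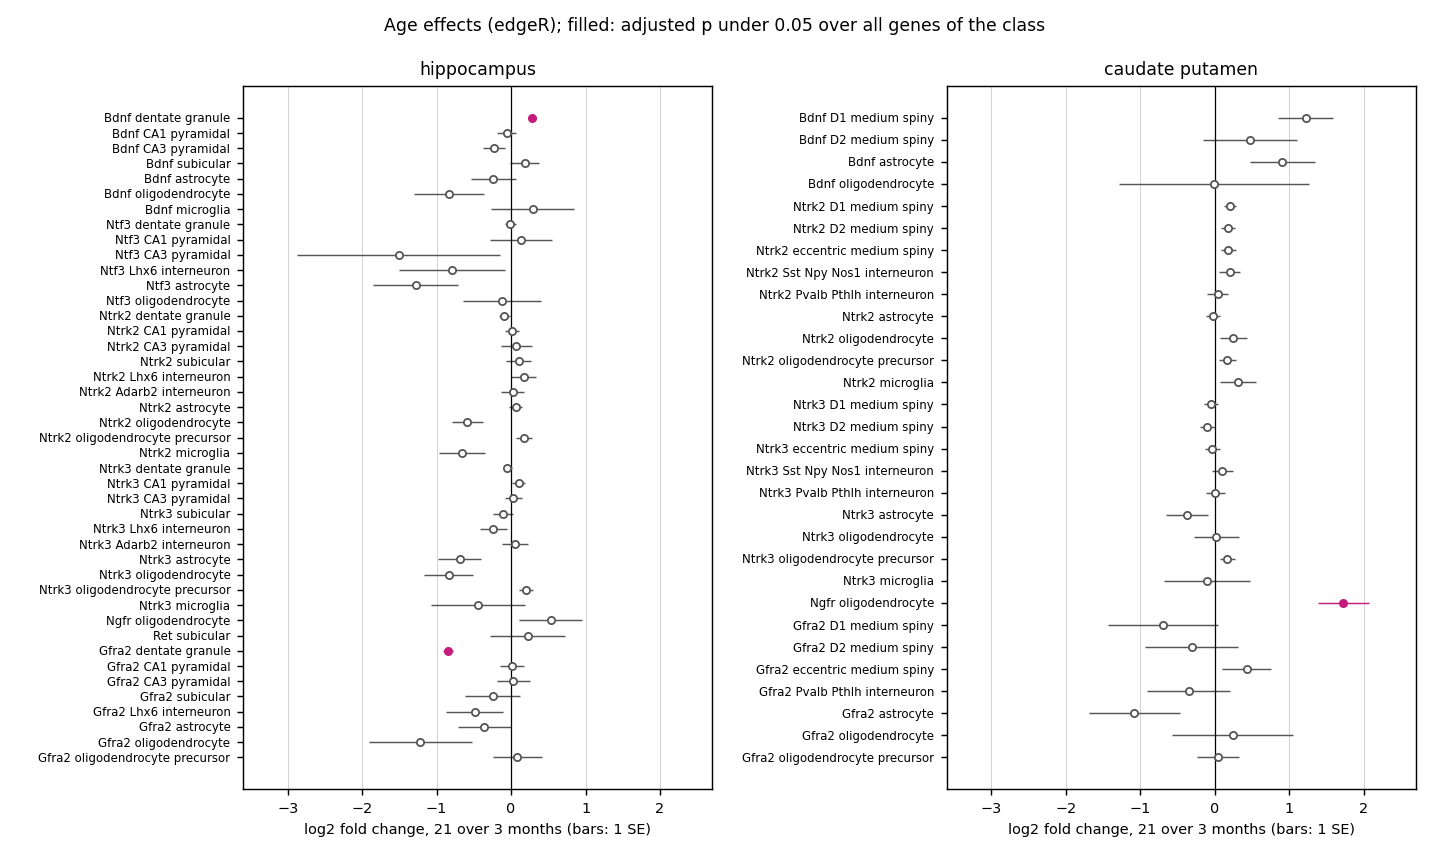
Log2 fold change from 3 to 21 months with 1 SE for 43 hippocampal and 30 caudate putamen pairs of gene and class, leaving out 1 and 3 pairs with at most 3 counts in an age group. Only Bdnf (0.28) and Gfra2 (-0.85) in dentate granule nuclei and Ngfr (1.73) in caudate putamen oligodendrocytes are filled as called.

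Regions were compared in the 4 glial classes that both hold, on all 8 libraries. Of 28 pairs, 17 were tested and 9 called, 2 higher and 7 lower in the caudate putamen, beside 12.3% of all tests over these classes (21.5% in astrocytes, 12.9% in oligodendrocytes, 5.18% in their precursors and 5.35% in microglia). Of the 9, 4 would have passed the filter on low counts in the libraries of either region alone: Ntrk2 in 3 classes and Bdnf in astrocytes. The other 5 (Bdnf in oligodendrocytes and microglia, Ntf3 in both of its classes, Gfra2 in astrocytes) entered through the hippocampal libraries, where they are higher, so their differences are given as values without a test. The count of 9 is therefore not read against the background. Ntrk2 was at 65.9 to 102 CPM in caudate putamen oligodendrocytes and at 32.7 to 58.1 CPM in hippocampal ones (log2 difference 0.91, SE 0.14, edgeR adjusted p = 0.00238), and the regions do not overlap. In microglia it was 77.1 to 137 CPM against 37.6 to 72.3 CPM (0.94, SE 0.20, adjusted p = 0.00758), and without the second caudate putamen library of 3 months the call was lost (0.81, adjusted p = 0.0848). Astrocytes differed little, with 905 to 1035 CPM against 1055 to 1104 CPM (-0.21, SE 0.07, adjusted p = 0.0370). That call ended when any 1 of 6 libraries was left out (all but the second hippocampal library and the first caudate putamen library of 3 months; adjusted p 0.0613 to 0.137) or when doublets were kept (-0.02, adjusted p = 0.918).

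Ntrk3 was not called between regions in any glial class, at 0.64 in astrocytes (SE 0.20, edgeR adjusted p = 0.0780) and 0.74 in oligodendrocytes (SE 0.22, adjusted p = 0.0677). By DESeq2 both were called, at adjusted p = 0.00133 and 8.83e-04. Of the hippocampal libraries, the second of 3 months had the most Ntrk3 in these classes (99.5 and 113 CPM). Without it the differences were 0.89 and 1.04. The astrocyte difference was 0.45 without the first hippocampal library of 3 months. In oligodendrocytes it was 0.92 without the first caudate putamen library of 21 months. Gfra2 was at 0.476 to 1.96 CPM in caudate putamen astrocytes (24 counts) and at 4.01 to 6.81 CPM in hippocampal ones (132 counts), without overlap. In oligodendrocytes, where it too entered the test through the hippocampal libraries, Gfra2 was at 0.428 to 1.46 CPM (34 counts) against 1.68 to 7.22 CPM (64 counts), and the highest value is that of the second hippocampal library of 3 months. In oligodendrocyte precursors none of the 3 genes tested was called, with log2 differences of 0.02 (Ntrk2, SE 0.08), -0.05 (Ntrk3, SE 0.07) and 0.39 (Gfra2, SE 0.21).

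The ligands had fewer counts in caudate putamen glia. Bdnf had 256 counts in hippocampal oligodendrocytes and 11 in those of the caudate putamen (pooled ratio 51.4). Microglia had 62 and 3 counts (36.1). Astrocytes had 323 and 79 (2.86, 95% counting interval 2.23 to 3.71, edgeR adjusted p = 3.61e-04). For Ntf3 the counts were 59 and 5 in oligodendrocytes (26.0) and 67 and 2 in astrocytes (23.5). These ratios pool molecules over libraries and leave out the spread between libraries.

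Transcripts that mark neurons were counted in hippocampal glia, at levels that differed widely between genes. Bdnf in a glial class stood at a median of 14.3% of the dentate granule level of its library in astrocytes, 15.2% in oligodendrocytes, 10.1% in precursors and 30.6% in microglia. Slc17a7, the vesicular glutamate transporter of excitatory neurons, stood at 15.4%, 22.0%, 10.9% and 30.8% in the same order, and Ntf3 at only 2.66%, 4.81%, 3.57% and 5.47%. C1ql2, a granule cell marker, reached 65.6%, 99.6%, 66.1% and 121%. Other markers of the list spread to both sides of it in single classes. Trpc6 was at 2.16%, 3.93%, 4.15% and 8.60% and Dsp at 6.46%, 8.10%, 3.76% and 12.7%. Maml2 was at 11.6% in oligodendrocytes, 80.1% in microglia and 119.9% in precursors, and above C1ql2 in astrocytes too. All 8 dentate granule markers were detected in hippocampal glia, save Dsp in the precursors of 1 library, with summed levels of 1267 to 1534 CPM in oligodendrocytes, 1585 to 2071 CPM in microglia, 2119 to 2499.8 CPM in precursors and 2809 to 2910.1 CPM in astrocytes. In caudate putamen glia, where the sums were 937 to 1098, 1255 to 1465, 1842 to 2160.3 and 2064 to 2248 CPM, Slc17a7 was at 0 to 3.40 CPM and C1ql2 at 0 to 1.56 CPM. The sums do not measure granule cell RNA, because glia of both regions held some of the 8 genes: Maml2 was at 1336 CPM or more in caudate putamen astrocytes and 1877 or more in hippocampal ones, and Prox1 at 188 and 219 CPM or more in oligodendrocytes. The part of free or carried-over neuronal RNA in the region differences of Bdnf and Ntf3 was not tested.

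**Figure D4:**
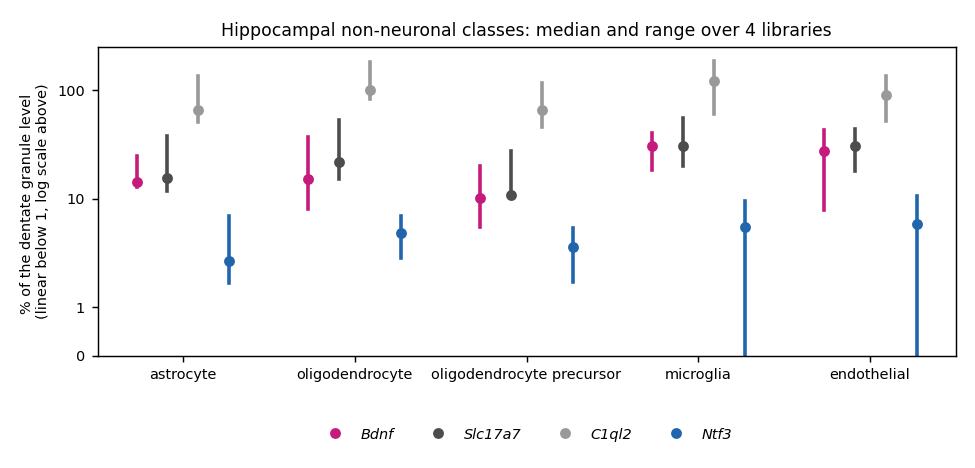
Level of Bdnf, Slc17a7, C1ql2 and Ntf3 in 5 hippocampal non-neuronal classes as a percent of the dentate granule level of the same library (median and range over 4 libraries; linear below 1, log above). In these 5 classes the median of Bdnf (30.6% in microglia) is below that of Slc17a7 (30.8%), with C1ql2 above both and Ntf3 below.

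Peptide and receptor genes of medium spiny neurons were counted in caudate putamen glia. Tac1 and Penk, the peptide genes of D1 and D2 neurons, stood at a median of 173% and 115% of the mean medium spiny level in oligodendrocytes and at 209% and 146% in microglia, and the receptor genes Drd1 at 92.5% and 133% and Adora2a at 35.2% and 41.5%. Ntrk2 stood at 10.7% and 12.9% of the spiny level in those classes. Tac1 was at 0.209 to 1.76 CPM in hippocampal oligodendrocytes. In astrocytes Tac1, Penk, Drd1 and Adora2a stood at 119.6%, 78.8%, 60.9% and 25.3%, and in precursors at 97.5%, 63.2%, 44.5% and 15.1%, each below its value in oligodendrocytes and microglia. The region difference of Ntrk2 was -0.21 and 0.02 in astrocytes and precursors. Those classes held 905 to 1104 and 478 to 604 CPM of Ntrk2, against 32.7 to 137 CPM in oligodendrocytes and microglia. A small addition of spiny RNA could not be seen at such levels, so these 2 differences cannot show it. The part of spiny RNA in the Ntrk2 differences was not tested.

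With the filter on low counts, edgeR called no member for a difference of age effects between the regions. Of 17 pairs tested 0 were called, and 0 among all 50394 tests of the 4 classes (0%). DESeq2 called 0 of these pairs too. Calls made by edgeR without the filter are given in the last section. At an unadjusted p under 0.05 there were 3: Ntrk2 in oligodendrocytes (0.84, SE 0.28, adjusted p = 0.714), Ntrk2 in microglia (0.97, SE 0.40, adjusted p = 1.000) and Bdnf in astrocytes (1.15, SE 0.53, adjusted p = 0.899).

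In the list of other neurotrophin ligands and receptors, 6 of 8 genes were tested in the hippocampus and 3 of 55 pairs were called (5.45%, beside 1.01% of all hippocampal tests). All were Sorcs2, which pairs with p75 as a receptor of precursor neurotrophins. Sorcs2 rose in oligodendrocyte precursors from 11.7 and 25.0 CPM to 40.7 and 56.2 CPM (log2 fold change 1.40, SE 0.28, edgeR adjusted p = 0.00443). It fell in CA1 pyramidal nuclei from 27.3 and 31.5 CPM to 14.1 and 18.1 CPM (-0.81, SE 0.15, adjusted p = 0.0194) and in dentate granule nuclei from 103 and 108 CPM to 79.9 and 70.6 CPM (-0.44, SE 0.07, adjusted p = 0.00450). Within dentate clusters 0, 1, 3, 5 and 14 it was -0.46 (adjusted p = 0.00624), 0.17, 0.09, -0.51 and -0.22, called in cluster 0 alone. In the caudate putamen 1 of 48 pairs was called (2.08%, beside 1.18% of all tests there): Sorcs3 rose in oligodendrocytes, from 119 and 117 CPM to 194 and 191 CPM (0.76, SE 0.10, adjusted p = 0.00429). The list's median log2 fold change was -0.00 and 0.20, against -0.01 and 0.00 over all genes. Log2 fold changes rose with gene span over all genes of each class, and the spans of the list were not matched.

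Among the genes for processing and release of neurotrophin precursors, 3 of 81 hippocampal pairs (3.70%) and 1 of 74 caudate putamen pairs (1.35%) were called, all higher at 21 months. Over all genes the shares were 1.01% and 1.18%, so the caudate putamen share lies near its background. Cadps2, a protein of dense-core vesicle release, rose in oligodendrocytes of both regions, from 56.8 and 62.2 CPM to 98.3 and 120.0 CPM in the hippocampus (0.92, SE 0.12, edgeR adjusted p = 0.00408) and from 44.4 and 47.8 CPM to 82.6 and 86.5 CPM in the caudate putamen (0.93, SE 0.11, adjusted p = 0.00223). It also rose in hippocampal oligodendrocyte precursors (0.63, SE 0.16, adjusted p = 0.0372). The proprotein convertase gene Pcsk2 rose in dentate granule nuclei, from 606 and 571 CPM to 741 and 721 CPM (0.36, SE 0.06, adjusted p = 0.00699). Within dentate clusters 0, 1, 3, 5 and 14, whose shares shifted with age, it was 0.22, 0.09, 0.22, 0.34 and 0.32, called in clusters 0 (adjusted p = 0.0187) and 3 (adjusted p = 0.0426; 2.15% of all genes were called in cluster 3).

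Of the adaptors of receptor tyrosine kinases, 1 of 175 hippocampal pairs was called (0.571%, below the 1.01% of all tests), Rapgef1, which fell in oligodendrocyte precursors (-0.63, SE 0.15, edgeR adjusted p = 0.0267), and DESeq2 called 0 of them. In the caudate putamen 0 of 162 were called by edgeR and 0 by DESeq2, with 25 at an unadjusted p under 0.05. Of the partners and effectors of p75, 3 of 96 hippocampal pairs were called (3.12%, beside 1.01%), which are the Sorcs2 pairs above, and 2 of 87 caudate putamen pairs were called (2.30%, beside 1.18% of all tests). Both were in D2 medium spiny nuclei, where 4.61% of all genes were called: Maged1 (-0.57, SE 0.12, adjusted p = 0.0415) and Irak1 (-0.35, SE 0.08, adjusted p = 0.0496) fell there. Of the other GDNF family genes 0 of 25 hippocampal and 0 of 34 caudate putamen pairs were called by edgeR and 0 by DESeq2. In the 2 regions 4 and 5 had an unadjusted p under 0.05. Over all genes of a hippocampal class such a p came in 537 of 10446 (Lhx6) to 3251 of 17946 (dentate granule). In the caudate putamen it came in 761 of 11361 (Pvalb Pthlh) to 4069 of 17315 (D2). The counts of unadjusted p-values are therefore not read as results about these lists.

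The activity-induced genes called in dentate granule nuclei were lower at 21 months. Of 100 hippocampal pairs of this list, 3 were called (3.00%, beside 1.01% of all hippocampal tests), all of them there, where 4.13% of all genes were called. The transcription factor genes Npas4 (0.891 and 1.50 CPM, then 0.482 and 0.451 CPM; log2 fold change -1.35, SE 0.32, edgeR adjusted p = 0.0429) and Egr1 (4.33 and 6.34 CPM, then 2.71 and 2.65 CPM; -0.96, SE 0.19, adjusted p = 0.0170) fell. Arc, a synaptic immediate early gene, fell from 1.74 and 2.35 CPM to 0.757 and 1.01 CPM (-1.19, SE 0.25, adjusted p = 0.0233). These levels rest on the whole class, whose cluster shares shifted with age. Within single clusters Egr1 was called in cluster 0 (-1.08, adjusted p = 0.0309) and not in clusters 1, 3 and 14 (-0.25, -0.51 and -1.06). Arc (-0.90 to -1.82 in clusters 0, 1, 3 and 14) and Npas4 (-1.85 and -0.82 in clusters 1 and 14) were called in none. In the caudate putamen 2 of 95 pairs were called by edgeR (2.11%, beside 1.18% of all tests) and 9 by DESeq2. Those of edgeR were both of the nuclear receptor gene Nr4a1, lower in astrocytes (-1.68, SE 0.34, adjusted p = 0.0441) and oligodendrocytes (-1.16, SE 0.22, adjusted p = 0.0275). Nr4a1 was higher in these classes of the caudate putamen than in those of the hippocampus (log2 difference 1.87 and 1.60). The part of spiny RNA in its fall with age was not tested. The list's median was -0.38 and -0.39 in the 2 regions, against -0.01 and 0.00 over all genes. Over all genes the log2 fold change rose with gene span in every class. Spearman rho was 0.07 (CA3) to 0.28 (precursors) in the hippocampus and 0.09 (D1) to 0.27 (oligodendrocytes and microglia) in the caudate putamen. Shorter genes thus tended to lower values, and the part of this trend in the list's median was not tested.

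Between regions, 2 of 10 pairs of the other GDNF family genes were called, beside 12.3% of all tests over the 4 glial classes. Both were in astrocytes, where 3 genes of the list were tested and 21.5% of all genes were called. Gfra1, the co-receptor for GDNF, was at 433 to 578 CPM in caudate putamen astrocytes and at 106 to 155 CPM in hippocampal ones (log2 difference 2.08, SE 0.10, edgeR adjusted p = 3.82e-08). Ncam1, an alternative partner of GDNF co-receptors, was at 1081 to 1265 CPM against 877 to 926 CPM (0.32, SE 0.07, adjusted p = 0.00331).

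Of the other neurotrophin ligands and receptors, 5 pairs were higher and 1 lower in caudate putamen glia out of 22. The largest differences among the called pairs were those of Sorcs1 in microglia (71.3 to 164 CPM against 1.98 to 13.8 CPM; 4.17) and astrocytes (46.4 to 75.7 CPM against 2.67 to 14.3 CPM; 2.73, SE 0.24, edgeR adjusted p = 1.28e-04) and of Sorcs2 in microglia (2.13). Both microglial pairs passed the filter through the caudate putamen alone (17 counts against 466 and 17 against 132), so no p is given for them and the count is not read against the background. Sorcs1 in caudate putamen astrocytes stood at a median of 7.74% of the medium spiny level. Of the processing genes 3 pairs were higher and 11 lower of 32, and 3 of these 14 passed the filter in 1 region alone, so this count is not read against the background either. Pcsk5, a proprotein convertase, was lower in caudate putamen oligodendrocytes (-2.30, SE 0.19, adjusted p = 1.73e-05). In microglia it was at 0 to 3.08 CPM against 10.4 to 50.9 CPM (11 and 87 counts), and Pcsk1 in oligodendrocytes had 112 counts against 15 (log2 difference 2.67). Those 2 pairs passed in 1 region alone and get no p.

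Of the adaptors, 4 pairs were higher and 2 lower of 73 (8.22%, below the 12.3% of all tests), led by Shc3 in oligodendrocytes (1.53, SE 0.26, edgeR adjusted p = 0.00311), Shc2 (1.13, SE 0.25, adjusted p = 0.00475) and Shc4 (0.90, SE 0.25, adjusted p = 0.0201) in astrocytes. Of the p75 partners, 4 were higher and 3 lower of 38, and 2 of these 7 passed in 1 region alone, so the same holds. Rtn4r, the Nogo receptor that can use p75 as a co-receptor, was lower in caudate putamen astrocytes, at 0 to 0.904 CPM against 5.67 to 9.82 CPM (9 and 187 counts), and it passed the filter through the hippocampus alone. Of the activity-induced genes, 31 pairs were higher and 2 lower of 42 in caudate putamen glia. Of these 33 pairs, 17 would have passed the filter in either region alone, 14 passed through the caudate putamen alone and 2 through the hippocampus alone, so the count is not read against the background. The largest called differences are among the 14 and get no p: Egr1 (15 counts in the hippocampus and 182 in the caudate putamen; 5.56) and Arc (6 and 56; 4.45) in oligodendrocyte precursors and Npas4 in oligodendrocytes (11 and 417; 4.37). Egr1 in those precursors stood at a median of 49.2% of the medium spiny level, below Tac1 (97.5%) and Penk (63.2%) and above Drd1 (44.5%) and Adora2a (15.1%), and the part of spiny RNA in these differences was not tested.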

How the data were processed

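Single-nucleus RNA (10x Genomics v3.1) was measured in 8 libraries. The authors deposited raw UMI counts per gene and nucleus, made with Cell Ranger against mm10; the submitters' processing notes give version 4.0.0, while the file headers give 6.1.2 for 7 libraries and 7.0.0 for the second caudate putamen library of 3 months. Whether intronic reads were counted is not given in the sources used here; the later version counts them by default, so that library may hold reads the others lack. Without it, the region calls of Ntrk2 in microglia and astrocytes were lost and that in oligodendrocytes was kept (0.90, edgeR adjusted p = 0.0106). The members and lists were chosen with earlier results of these data known.

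Barcodes under 500 detected genes (1307) or over 5% mitochondrial counts were dropped, and 10776 called doublets (2.55% to 15.6% per library) were removed. The automatic doublet threshold failed in the second hippocampal library of 3 months (71.1% called), where the expected rate was used and 15.6% were removed. That library had 26.0% of its dentate nuclei in cluster 5. It had the most Ntrk3 of the hippocampal libraries in astrocytes and oligodendrocytes. Clusters came from scanpy 1.11.5 (3000 variable genes without members or list genes, 40 components, 20 neighbours, Leiden resolution 1.0) and were named from 3 or more detected markers; the limits for naming were set after the data were seen. Counts summed per class and library (at least 20 nuclei in each for a test, 10 for a level) went into edgeR 4.0.16 (TMM, filterByExpr, robust quasi-likelihood fit, Benjamini-Hochberg within a class), neurons on 4 libraries and glia on 8. Pairs of gene and class with an unadjusted p under 0.05 were named singly, as were the 3 called list genes with the largest change per list and comparison. On counts simulated for dentate granule nuclei (17946 genes), the test recovered 80% of 2-fold and 63% of 1.5-fold changes. Counting intervals cover 95% and counting error only. Gene spans came from GENCODE vM21, which held 32158 of the 32285 genes. Alternatives were RLE scaling, no filter, DESeq2 1.42.0, a replicate block, doublets kept, Leiden resolution 0.5, the region's own libraries for glia and each library left out; removal of a trend on gene span and single clusters were added after the data were seen. One of the genes most like Ntf3 is not reported here.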

Additional observations from a re-analysis of the deposited data

How the results depend on the processing

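The count of called pairs for age in the hippocampus (2) became 5 without the filter on low counts and 1 to 3 with each library left out. For age in the caudate putamen (1) it became 0 with DESeq2, 0 with glia fitted on the region's 4 libraries, 2 with the replicate block (the added call being Gfra2 in D1 nuclei, -0.74 with adjusted p = 0.0470, against 0.686 without the block) and 0 without any 1 of the 4 libraries. For the region comparison (9) it became 14 without the filter and 14 with doublets kept, and for the difference of age effects (0) 2 without the filter; leaving out single libraries gave 8 to 11 and 0. Without the filter, Ntrk2 and Ntrk3 in hippocampal oligodendrocytes were called for age (-0.58 with adjusted p = 0.00499, -0.83 with adjusted p = 3.17e-07; with the filter, Ntrk3 was -0.23 without the second library of 3 months) and Ntrk2 in oligodendrocytes for the difference of age effects (0.85, adjusted p = 0.00363). With doublets kept, 5 of 7 genes kept their highest class, since the hippocampal fibroblast class was not named there and Gfra2 in caudate putamen pericytes was at 38.3 CPM. Of the age effects within single clusters, the sign of Bdnf changed in dentate clusters 0 (-0.02, SE 0.08), 1 (-0.20, SE 0.12), 3 (-0.26, SE 0.09) and 14 (-0.06, SE 0.12). That of Gfra2 changed in dentate cluster 5 (0.13, SE 0.31) and that of Ntrk2 in D1 cluster 8 (-0.14, SE 0.17). None of these was called, and the cause was not tested. Same-numbered libraries of different ages correlated in their deviations at over 0.1 in 5 of 6 caudate putamen classes checked (0.54 in D1, 0.41 in D2, 0.33 in astrocytes, 0.19 in microglia, 0.14 in oligodendrocytes; 0.04 in precursors) and in 1 of 6 hippocampal classes (0.58 in microglia; -0.05 to 0.05 in the others), and the labels do not say that a number marks shared animals or days. With the replicate block, the region comparison also called Ntrk3 in astrocytes (adjusted p = 0.0374) and in oligodendrocytes (0.0446); Gfra2 in oligodendrocytes also crossed the threshold but entered the test through the hippocampal libraries alone, and no other call of a member changed. With 2 libraries a group, small changes such as 1.5-fold ones were recovered in 24% of simulated D1 and astrocyte genes.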
